A study of Sus scrofa domesticus with 9 samples.

Results

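Integrin and laminin genes were followed in lung RNA of pigs fed a standard or an increased dose of cholecalciferol. The set holds genes whose name in the deposited table starts with ITGA or ITGB, or with LAMA, LAMB or LAMC and a digit, 38 genes of the 35670 in the table. Of these, 17 are integrin alpha subunits, 8 are integrin beta subunits and 10 are laminin chains (4 alpha, 4 beta and 2 gamma). The remaining 3 genes share the spelling but are no subunits (ITGB1BP1, ITGB1BP2 and ITGBL1). A mean normalized count over 20 was reached by 29 of the 38, among them 20 integrin subunits and 7 laminin chains, and only these were tested. LAMB1 was the lowest tested gene, with a mean of 24.8, and ITGA2 was the highest untested one, with a mean of 13.1. The animals were domestic pigs (Sus scrofa domesticus), with 1 library per animal. The labels and the methods give them as female and the discussion of the study as male, which was not settled here. The 4 standard-dose pigs (replicates 9, 17, 33 and 41) ate feed with 2000 IU of cholecalciferol per kg as growers and 1500 IU per kg as finishers. The 5 increased-dose pigs (replicates 3, 19, 27, 51 and 59) ate the same feed with 3000 and then 2500 IU per kg. Both groups were fed for 88 days, and neither group went without cholecalciferol, so the comparison is of a higher against a lower supplement. The sampled tissue was the middle of the upper lobe of the left lung.

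Integrins are receptors of the cell surface, each built from an alpha and a beta subunit, that hold cells to the matrix or to other cells and connect these contacts to the actin skeleton. Laminins are trimers of an alpha, a beta and a gamma chain, and they form the sheet of the basement membrane on which epithelium and endothelium sit. In the lung the alveolar epithelium and the capillary endothelium share such a basement membrane, leukocytes use integrins to leave the blood, and the integrin of ITGAV and ITGB6 on epithelial cells releases active transforming growth factor beta from its latent complex. Roles of single genes are given below as known from human and mouse.

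Sequencing started from the 3′ end of the transcripts, which makes a count independent of how long a transcript is, and levels of different genes can be set side by side where the annotated 3′ ends are right. A normalized count is the number of reads divided by the size factor of the library, and 1 read was worth 0.853 to 1.49 normalized counts. The libraries held 4253502 to 5919294 reads in genes, and 3 reads, the limit that a count of 0 allows, corresponded to 2.56 to 4.48 normalized counts. Standard-dose replicates 9 and 41 stood apart from the rest. Over the 12446 tested genes their median Spearman correlations with the other libraries were 0.7505 and 0.8308, against 0.9117 to 0.9334 for the remaining 7. All the marker lists of pneumocytes, endothelium and macrophages were detected, with the summed type 2 pneumocyte markers at 4091 to 18606 on the standard dose and 15975 to 29332 on the increased dose. The summed hepatocyte markers stood at 47697 to 353394 and 27059.6 to 57113, with 11 of 11 tested markers highest in replicate 9, and the summed skeletal muscle markers stood at 36212 to 254402 and 61132 to 145329, with 7 of 7 highest in replicate 41. In bulk tissue, fewer cells of a type and less RNA per cell cannot be told apart. Values without these libraries are given below for the differences between the doses that leaving them out moved by over 1.5 times or turned in sign.

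ITGB1, the beta subunit that most alpha subunits of matrix receptors pair with, had the highest level of the set, with a mean of 1394. ITGB2, the beta subunit of the leukocyte integrins, followed with 895 and ITGAV, the alpha subunit of receptors for the RGD motif, with 590.0. Next came 3 laminin chains, LAMA5 with 525, LAMA3 with 519.8 and LAMC1 with 507, then ITGA1 with 477, ITGA9 with 437, LAMA4 with 419, ITGA8 with 403 and ITGB5 with 341. From ITGAV down to ITGB5 the range over the 9 libraries of each gene overlapped that of its neighbour in this order, so that the order within that stretch is not resolved by these libraries. A gap separated LAMC1 and the well counted alpha laminin chains from the beta chains, since LAMB3, LAMB2 and LAMB1 had means of only 95.7, 59.0 and 24.8. Every laminin trimer needs a beta chain, and the mean mRNA counts of the beta chains were below those of LAMC1 and these alpha chains. The proportions of the chains as protein were not measured. A further limit is that RefSeq places the 3′ end of LAMB1 further downstream than the deposited position does.

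**Figure D1:**
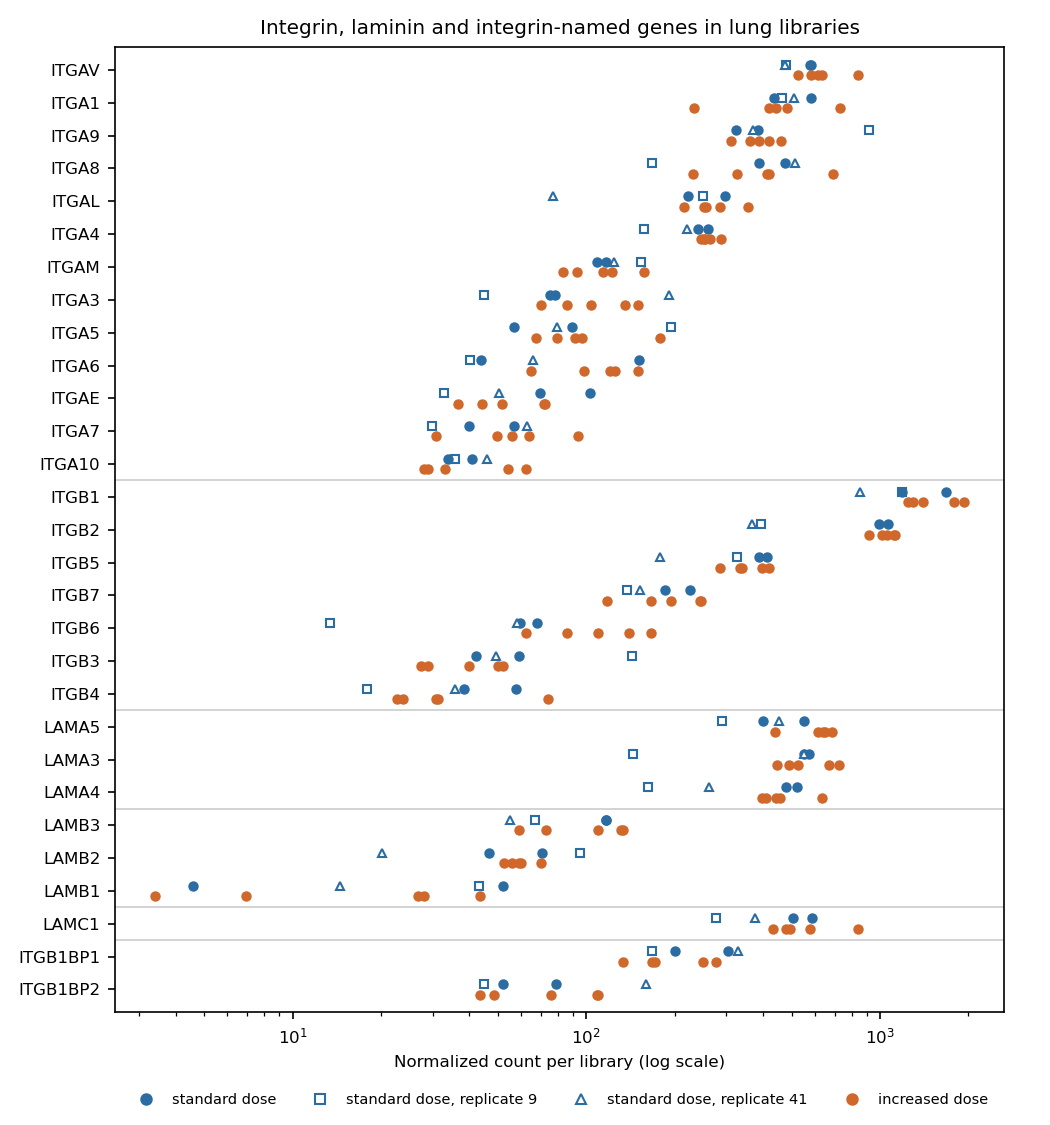
Normalized count per library on a log axis for the 29 genes with a mean over 20, grouped as integrin alpha, integrin beta, laminin alpha, beta and gamma, and genes that are no subunits; open squares and triangles are standard-dose replicates 9 and 41. The open symbols lie at the low end of many genes, as for ITGB6 at 13.4 and ITGB2 at 394 and 366, and the dose groups overlap for all 29.

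The comparison of the doses asked whether the higher supplement goes along with other mRNA levels in the lung. No integrin or laminin gene passed the threshold of an adjusted p under 0.05 in limma on log2 of the normalized count plus 1, in which 0 of all 12446 genes passed (0%, lowest adjusted p 0.397). An unadjusted limma p under 0.05 was reached by 3 of the 29, all of them higher on the increased dose, namely ITGB6, LAMA5 and ITGB2, and 0 were lower. Among all tested genes 12.2% had an unadjusted p under 0.05 (5.57% higher and 6.6% lower), so that 3 of 29 in either direction is near the background, while all 3 were on the higher side. On recovered reads edgeR called 0 of 12446 genes (15% at an unadjusted p under 0.05) and DESeq2 called 195 (1.57%, and 13.6% at an unadjusted p under 0.05), and none of these 195 was an integrin or laminin gene. Unadjusted, edgeR had ITGB6 and LAMA5 under 0.05 and DESeq2 had ITGB6. The exact permutation test had ITGB6 and LAMA5, beside 12.3% of all genes. Dose groups that lay fully apart were found for 0 of the 29 genes, against 3.81% of all tested genes. The log2 fold change was positive for 20 of the 29, where 50.8% of all tested genes had a positive one. Its median was 0.19 over the 29 genes, 0.16 over the 20 integrin subunits and 0.39 over the 7 laminin chains, against 0.01 over all tested genes. Without replicate 9 these medians were 0.08, 0.09 and 0.19, and without replicates 9 and 41 they were 0.02, 0.06 and 0.00158 beside −0.01 over all genes. Replicate 9 was the lowest library for 12 of the 29 genes (4 of 7 laminin chains), where it was the lowest for 21.3% of all tested genes, and the highest for 4 of the 29, where it was the highest for 29.1%. Replicate 41 was the lowest for 7, where 22.4% of all tested genes had their lowest value in it. The part of these 2 libraries in the medians was measured by leaving them out, and the part of the cell types whose markers differ in them was not tested.

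**Figure D2:**
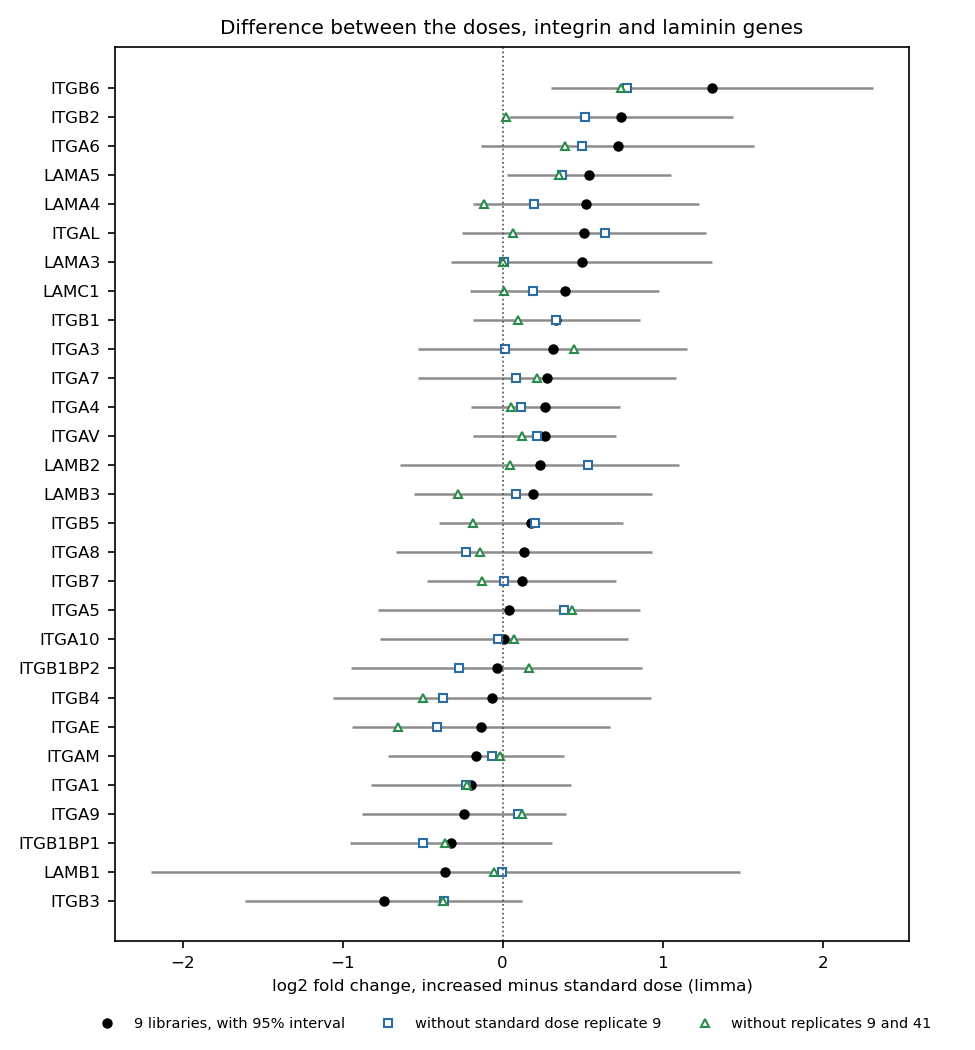
Log2 fold change, increased minus standard dose, of the 29 tested genes in limma (black points, with the 95% interval), and the same without standard-dose replicate 9 (blue squares) and without replicates 9 and 41 (green triangles). Only the intervals of ITGB6, ITGB2 and LAMA5 leave out 0, and without both libraries ITGB2 stands at 0.02 and LAMA5 at 0.35.

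ITGB6 (chr15:67041522-67175234, minus strand, Sscrofa11.1, Ensembl ENSSSCG00000015886) codes the beta subunit that pairs with ITGAV on epithelial cells. Its normalized counts were 13.4, 59.4, 67.9 and 58.2 in the standard-dose libraries and 62.4, 86.2, 140.2, 166 and 109.8 in the increased-dose libraries, in the order of replicates given above. Replicate 9 lay far below the other standard-dose pigs, and the group ranges met only through increased-dose replicate 3, which lay below standard-dose replicate 33. The means were 49.7 ± 24.6 (SD, n = 4) on the standard dose and 113 ± 41.3 (SD, n = 5) on the increased dose. The difference was 1.31 on the log2 scale (SE 0.47), with an unadjusted limma p of 0.0147, an adjusted p of 0.397 and an exact two-sided permutation p of 0.0238 before adjustment, where the smallest that the 126 splits can give is 0.00794. It was 0.78 without replicate 9, 1.46 without replicate 41 and 0.74 without both, positive in each case. The summed type 1 pneumocyte markers stood at 1774, 5888, 5709 and 5678 in the standard-dose libraries. They stood at 5285, 9423, 5907, 9599 and 6293 in the increased-dose libraries. Like ITGB6, this sum was lowest in replicate 9 and highest in replicate 51. Replicate 27, with 140.2 for ITGB6, had a sum of 5907, level with 5888 in replicate 17, which had 59.4 for ITGB6. Of 6 tested markers 5 were lowest in replicate 9, and none of the detected markers was at 0 throughout. The type 2 pneumocyte markers were lowest in replicate 9 for 7 of 7. Their part in the result was not tested. ITGAV, the partner subunit, had counts of 479, 579, 583 and 473 in the standard-dose libraries and 632, 581, 528, 842 and 613 in the increased-dose libraries. It overlapped between the groups, and its difference of 0.26 on the log2 scale (SE 0.21) did not pass (adjusted limma p 0.575) and was 0.12 without both libraries.

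LAMA5 (chr17:61697517-61747955, minus strand, ENSSSCG00000032761) codes the alpha chain of the laminins that are widespread in adult basement membranes, those of the alveolus included. Its counts were 289, 400.4, 549 and 452 in the standard-dose libraries and 685, 650.0, 617, 639.9 and 439 in the increased-dose libraries. Of the increased-dose pigs 4 lay above every standard-dose pig, and replicate 59 lay below standard-dose replicates 33 and 41. The means were 423 ± 108 (SD, n = 4) on the standard dose and 606 ± 96.5 (SD, n = 5) on the increased dose, a difference of 0.54 on the log2 scale (SE 0.24) with an adjusted limma p of 0.401 and an exact permutation p of 0.0397 before adjustment. Leaving out replicate 9 gave 0.37, and leaving out replicates 9 and 41 gave 0.35.

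ITGB2 (chr13:207512950-207544107, minus strand, ENSSSCG00000025133) codes the common beta subunit of the leukocyte integrins. Its counts were 394, 994, 1067 and 366 in the standard-dose libraries and 919, 1014, 1116, 1058 and 1123 in the increased-dose libraries. Replicates 17 and 33 lay within the increased-dose range, and replicates 9 and 41 lay far below it. The means were 705 ± 377 (SD, n = 4) on the standard dose and 1046 ± 83.8 (SD, n = 5) on the increased dose, a difference of 0.74 on the log2 scale (SE 0.32) with an adjusted limma p of 0.401 and an exact permutation p of 0.0714. It was 0.52 without replicate 9, 0.48 without replicate 41 and 0.02 without both. The summed markers of macrophages and neutrophils were low in the same libraries. Macrophage sums stood at 8526, 11064, 12401 and 3208 on the standard dose against 10608 to 15669 on the increased dose. Neutrophil sums stood at 339, 1350.3, 2007 and 1186 against 1582 to 2617. All 7 tested macrophage markers were lowest in replicate 41 and 0 in replicate 9. In replicate 9, MARCO, CD163, CD68 and MSR1 lay below the increased-dose range, and C1QA (3645), C1QB (1104) and MRC1 (750) inside it. Of the 3 tested neutrophil markers 2 were lowest in replicate 9 and 1 in replicate 41. S100A12 in replicate 41 (968.2) was level with replicate 17 (967.2). The summed T and NK cell markers, at 855, 810.0, 821 and 597 against 701 to 839, were highest in replicate 9 and lowest in replicate 41. NKG7, the marker with the highest mean, stood at 485 and 83.9 in these libraries. Of the 6 tested markers 3 were highest and 2 lowest in replicate 9. In replicate 41, 1 was highest (CD2, at 274) and 1 lowest. The summed B cell markers stood at 94.0, 189, 98.3 and 102 against 96.4 to 167. The part of these cell types in the ITGB2 result was not tested.

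**Figure D3:**
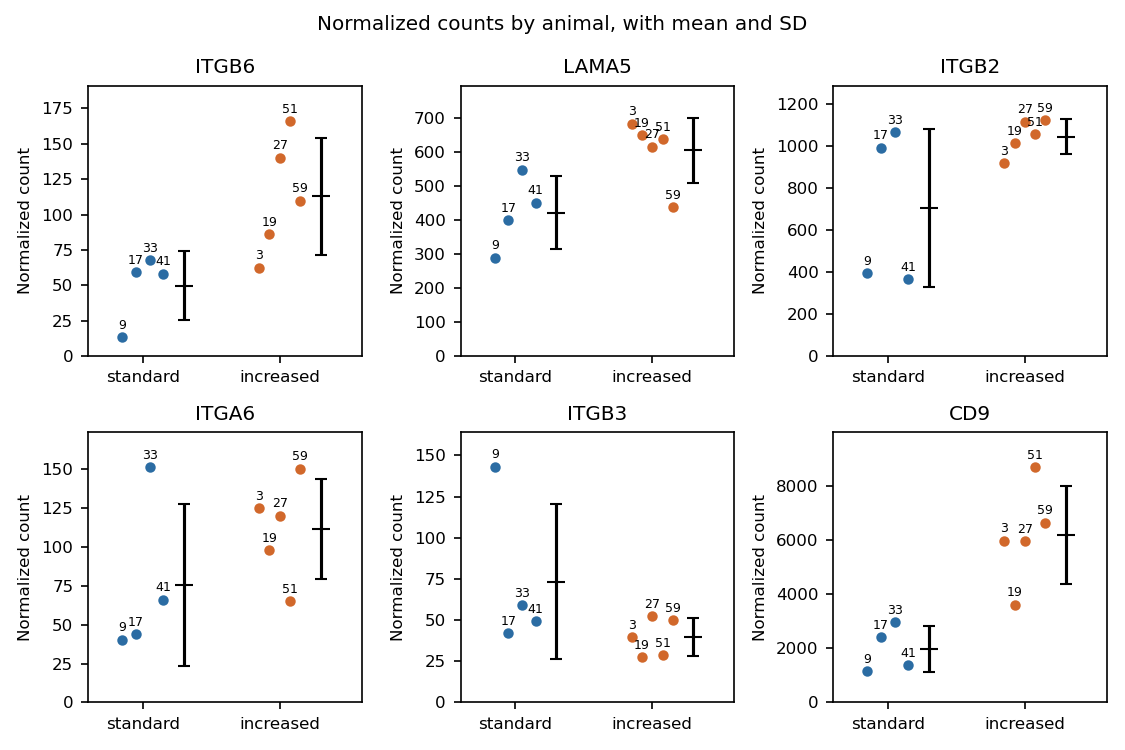
Normalized counts of ITGB6, LAMA5, ITGB2, ITGA6, ITGB3 and the integrin-associated tetraspanin CD9 in each animal (points, numbered by replicate), with group mean and SD as black bars on a linear axis from 0. Only CD9 separates the groups, and standard-dose replicate 9 is the lowest pig for ITGB6, LAMA5, ITGA6 and CD9 and the highest for ITGB3.

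ITGA6 and ITGB3 are described with ITGB6 and ITGB2 because these 4 had the greatest differences of the set in either direction. ITGA6 (chr15:78504078-78591777, plus strand, ENSSSCG00000015955) codes an alpha subunit of laminin receptors, which pairs with ITGB1 or ITGB4. Its counts were 40.3, 43.9, 151 and 66.0 in the standard-dose libraries and 125, 98.1, 120.2, 64.9 and 150.2 in the increased-dose libraries. Standard-dose replicates 9 and 17 were the lowest pigs, but replicate 33 was the highest of all and replicate 41 lay inside the increased-dose range. The difference of 0.72 on the log2 scale (SE 0.39) did not pass (limma p 0.092, adjusted 0.442) and was 0.49 without replicate 9 and 0.39 without both libraries. ITGB3 (chr12:16693514-16752292, minus strand, ENSSSCG00000017306) codes the beta subunit of the platelet fibrinogen receptor and of a vitronectin receptor on vessel cells. Its counts were 143, 42.1, 59.2 and 49.2 in the standard-dose libraries and 39.8, 27.3, 52.2, 28.9 and 50.1 in the increased-dose libraries. Replicate 9 was the highest of all, and of the other 3 standard-dose pigs replicates 17 and 41 lay inside the increased-dose range and replicate 33 just above it. The difference of −0.74 on the log2 scale (SE 0.40) did not pass (limma p 0.0862, adjusted 0.435) and was −0.37 without replicate 9. The 4 platelet markers used had summed levels of 50.7, 102, 174 and 16.8 in the standard-dose libraries and 101 to 180.3 on the increased dose, most of the latter from PPBP. Replicate 9 was thus low in this sum, and replicate 41 was lower. GP9 went the other way, with 16.4 in replicate 9 and 0 in the other 8 libraries, and GP6 was at 0 in every library. The part of platelets in the ITGB3 value of replicate 9 was not tested.

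The 300 bases before the RefSeq gene start of these 4 genes are shown because the differences between the doses were greatest for them. They were read from the RefSeq genome Sscrofa11.1, the build of the deposited positions, 5′ to 3′ on the strand of the gene. The windows lie at chr15:67175410-67175709, minus strand (ITGB6), chr15:78503808-78504107, plus strand (ITGA6), chr12:16752229-16752528, minus strand (ITGB3) and chr13:207544109-207544408, minus strand (ITGB2). Capitals mark matches, on either strand, to AGGTCA, the core that nuclear receptors such as the vitamin D receptor bind, to the GC box GGGCGG or to the TATA element TATAAA.
ITGB6: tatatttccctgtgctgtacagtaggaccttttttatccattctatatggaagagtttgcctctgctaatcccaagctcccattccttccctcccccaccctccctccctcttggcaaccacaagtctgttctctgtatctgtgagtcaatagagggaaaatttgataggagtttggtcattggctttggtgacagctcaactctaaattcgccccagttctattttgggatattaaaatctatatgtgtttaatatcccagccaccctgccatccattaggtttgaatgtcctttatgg
ITGA6: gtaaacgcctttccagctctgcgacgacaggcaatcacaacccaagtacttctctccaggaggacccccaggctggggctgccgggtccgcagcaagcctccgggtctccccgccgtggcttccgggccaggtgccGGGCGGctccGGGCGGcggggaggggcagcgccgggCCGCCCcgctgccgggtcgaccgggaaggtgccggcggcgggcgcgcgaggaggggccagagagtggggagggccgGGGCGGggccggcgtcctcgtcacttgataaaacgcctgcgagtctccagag
ITGB3: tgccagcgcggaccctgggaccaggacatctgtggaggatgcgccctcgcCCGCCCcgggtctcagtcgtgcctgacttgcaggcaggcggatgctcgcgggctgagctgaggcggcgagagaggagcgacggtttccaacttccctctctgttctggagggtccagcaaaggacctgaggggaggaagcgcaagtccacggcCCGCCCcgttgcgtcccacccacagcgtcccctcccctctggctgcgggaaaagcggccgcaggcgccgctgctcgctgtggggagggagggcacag
ITGB2: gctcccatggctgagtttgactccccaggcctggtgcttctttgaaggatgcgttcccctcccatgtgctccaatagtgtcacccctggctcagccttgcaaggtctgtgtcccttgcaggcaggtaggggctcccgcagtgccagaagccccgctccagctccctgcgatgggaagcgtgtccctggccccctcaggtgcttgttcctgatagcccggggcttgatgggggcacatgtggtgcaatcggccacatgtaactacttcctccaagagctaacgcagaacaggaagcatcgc
The windows differed in composition, from 1 CG dinucleotide and 43.3% GC in ITGB6 to 34 CG and 73.7% GC in ITGA6, with 26 CG in ITGB3 and 9 in ITGB2. The median over 19531 such windows was 14 CG. AGGTCA was in none of the 4 windows, and 14.6% of all windows hold it. GGGCGG was found in ITGA6 and ITGB3, and 47.7% of all windows hold it. In ITGA6 it began 164, 154 and 52 bases before the start on the strand of the gene and 128 bases before it on the opposite strand (read as CCGCCC). In ITGB3 it began 250 and 97 bases before the start, both times on the opposite strand. TATAAA was in none of the 4 windows, and 11.9% of all windows hold it. A direct repeat of the receptor core (each copy being AGGTCA, or GGGTCA, or AGTTCA, or GGTTCA) spaced by 3 bases, searched on both strands and overlapping the first motif by construction, was in none of the 4 and in 0.0666% of all windows. The windows of ITGB3 and ITGA6 reach into the Ensembl models of these genes, and that of ITGB6 lies apart from its Ensembl model, because the annotated starts differ. These are matches of letters in windows before RefSeq starts, and no binding was measured.

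Laminin chains were next described by the basement membranes they are known from. LAMA3, an alpha chain of epithelial basement membranes, had counts of 145, 549, 573 and 553 in the standard-dose libraries and 526, 671, 448, 723 and 490.1 in the increased-dose libraries. The low value of replicate 9 stood alone, and the other 3 standard-dose pigs lay inside the increased-dose range. The difference was 0.49 on the log2 scale (SE 0.38, adjusted limma p 0.562) with all libraries and 0.01 without replicate 9. LAMB3, a beta chain that trimerizes with LAMA3, stood at 54.8 to 117 and 58.8 to 133 in the 2 groups, which overlapped over most of their range, with its lowest value in replicate 41. LAMA4, the alpha chain typical of endothelial basement membranes, had counts of 163, 522, 480.2 and 261 in the standard-dose libraries and 637, 395, 443, 458 and 410.2 in the increased-dose libraries. Replicates 9 and 41 were the lowest 2 pigs, and the difference of 0.52 on the log2 scale (SE 0.33, adjusted limma p 0.484) was 0.20 without replicate 9 and −0.12 without both. Summed endothelial markers were lowest in the same pigs, at 2366 and 2674 against 3828 to 5409 on the increased dose (8 markers tested, 4 lowest in replicate 9 and 3 in replicate 41), and their part in the LAMA4 result was not tested. LAMC1, the gamma chain of most other laminins, had counts of 276, 506, 585 and 375 in the standard-dose libraries and 841, 432, 576, 493 and 479 in the increased-dose libraries. Replicate 3 was far above the rest and the groups overlapped, with a difference of 0.39 on the log2 scale (SE 0.27, adjusted limma p 0.528) that was 0.19 without replicate 9 and 0.01 without both libraries. The beta chains LAMB2, found in vessel and smooth muscle basement membranes, and LAMB1 were low, at 20.1 to 95.5 and 52.6 to 70.3 for LAMB2 and 4.57 to 52.2 and 3.41 to 43.4 for LAMB1. LAMB1 had high and very low pigs in both groups, the widest relative spread of the 7 tested chains. The alpha chain LAMA1 and the gamma chain LAMC3 had means of only 1.01 and 3.29, and the beta chain LAMB4 was at 0 in all 9, which allows up to 2.56 to 4.48 normalized counts. The gene that the deposited positions describe as LAMA2 (ENSSSCG00000033894) has no name in the count table and so was not in the set, and its mean was 10.8, with 33.6 in replicate 41 and at most 12.5 elsewhere.

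Among the alpha subunits of collagen and laminin receptors, ITGA1, a collagen receptor of smooth muscle and fibroblasts, had counts of 462, 435, 583 and 510.4 in the standard-dose libraries and 442, 232, 730.5, 417 and 480.5 in the increased-dose libraries. The increased-dose pigs held both the lowest and the highest value, and the difference of −0.20 on the log2 scale (SE 0.29) was within the spread (adjusted limma p 0.783). ITGA3, which pairs with ITGB1 as a laminin receptor of epithelium, had counts of 44.8, 75.0, 78.3 and 191 in the standard-dose libraries and 104, 86.2, 135, 149 and 70.3 in the increased-dose libraries. Replicate 9 was the lowest and replicate 41 the highest pig of all, and the difference of 0.31 on the log2 scale (SE 0.39, adjusted limma p 0.739) was 0.01 without replicate 9 and 0.70 without replicate 41. The further laminin receptor subunit ITGA7 stood at 29.8 to 62.7 on the standard dose and at 30.9 to 94.1 on the increased dose, with replicate 9 lowest. ITGB4, which pairs with ITGA6 in hemidesmosomes, stood at 17.9 to 57.6 and 22.6 to 74.2. The collagen receptor subunit ITGA10 stood at 33.8 to 45.9 and 27.9 to 62.3, and ITGA2 and ITGA11 had means of only 13.1 and 3.85. ITGB1, the beta partner of these alpha subunits, had counts of 1189, 1186, 1673 and 857 in the standard-dose libraries and 1928, 1242, 1291, 1784 and 1399 in the increased-dose libraries. Replicate 41 was the lowest pig and increased-dose replicates 3 and 51 were the highest, but the groups overlapped, and the difference of 0.34 on the log2 scale (SE 0.24) did not pass (adjusted limma p 0.535, without both libraries 0.10).

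Receptors for fibronectin, vitronectin and other RGD ligands were also without a called difference. ITGA5, the fibronectin receptor subunit, had counts of 194, 56.7, 89.6 and 79.5 in the standard-dose libraries and 178, 79.3, 91.4, 96.9 and 67.4 in the increased-dose libraries. A pig of each group (replicates 9 and 3) stood high and the others lay between 56.7 and 96.9. The difference of 0.04 on the log2 scale (SE 0.38, adjusted limma p 0.974) was 0.38 without replicate 9 and −0.04 without replicate 41. ITGA8, which binds nephronectin and marks interstitial fibroblasts and smooth muscle, had counts of 167, 389, 475 and 515 in the standard-dose libraries and 231, 414, 418, 326 and 693 in the increased-dose libraries. The low replicate 9 and the high replicate 59 were at the ends. The difference of 0.13 on the log2 scale (SE 0.37, adjusted limma p 0.891) turned to −0.23 without replicate 9 and was 0.31 without replicate 41. ITGA9, a receptor subunit for tenascin and VCAM1, had counts of 919, 324, 385 and 369 in the standard-dose libraries and 360.0, 459.8, 310.0, 418 and 387 in the increased-dose libraries. Replicate 9 was the highest, and the other 8 pigs lay within 310.0 to 459.8. Its difference was −0.24 on the log2 scale (SE 0.30, adjusted limma p 0.734) and became 0.10 without replicate 9. ITGB5, a beta subunit for ITGAV, had counts of 325, 411, 387 and 178 in the standard-dose libraries and 286, 418, 333, 338 and 396 in the increased-dose libraries. Replicate 41 was the lowest and the groups overlapped. The difference of 0.18 on the log2 scale (SE 0.27, adjusted limma p 0.784) was −0.09 without replicate 41. ITGB8, the other beta subunit that releases active transforming growth factor beta with ITGAV, had a mean of 7.30, less than that of ITGB6 (84.8), and its value of 21.3 in replicate 41 was above the rest (at most 9.95). ITGA2B, the platelet partner of ITGB3, had a mean of 11.05 and a range of 4.48 to 17.4 over the 9 pigs.

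The leukocyte integrins had no called difference. ITGAL, the partner of ITGB2 on lymphocytes, had counts of 249, 222, 298 and 77.2 in the standard-dose libraries and 215, 356, 251, 256 and 286 in the increased-dose libraries. Replicate 41 was the lowest by far and the other 3 standard-dose pigs lay inside the increased-dose range, with a difference of 0.51 on the log2 scale (SE 0.35, adjusted limma p 0.521) that was 0.08 without replicate 41 and 0.06 without replicates 9 and 41. ITGAM, the partner of ITGB2 on monocytes and neutrophils, had counts of 154, 109, 117 and 124 in the standard-dose libraries and 93.2, 157, 122, 83.5 and 114 in the increased-dose libraries. Neither replicate 9 nor 41 was low for it, in contrast to ITGB2. The difference was −0.17 on the log2 scale (SE 0.25, adjusted limma p 0.789). It was −0.07 without replicate 9 and −0.02 without replicates 9 and 41. ITGAD, a further partner of ITGB2, had a mean of 4.498 and was at 0 in replicates 9 and 41. ITGA4, which pairs with ITGB1 or ITGB7 and binds VCAM1 and MADCAM1, had counts of 157, 259.6, 241 and 220.5 in the standard-dose libraries and 245, 253, 263, 288 and 252 in the increased-dose libraries. The increased-dose pigs spanned only 245 to 288, and standard-dose replicate 17 was the 1 standard-dose pig inside that range. The difference of 0.27 on the log2 scale (SE 0.22) had an adjusted limma p of 0.585 and an exact permutation p of 0.0556 before adjustment, and was 0.12 without replicate 9 and 0.05 without replicates 9 and 41. ITGB7 had counts of 137, 226, 185 and 152 in the standard-dose libraries and 246, 244, 195, 117 and 166 in the increased-dose libraries. Its groups overlapped fully. The difference of 0.12 on the log2 scale (SE 0.27, adjusted limma p 0.865) was 0.01 without replicate 9 and −0.13 without replicates 9 and 41. ITGAE, the partner of ITGB7 on T cells within epithelium, stood at 32.8 to 103 and 36.6 to 72.4, lowest in replicate 9.

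Of the 3 genes that are no subunits, ITGB1BP1 codes a cytoplasmic protein that binds the tail of ITGB1 and holds the receptor inactive. Its counts were 167, 304, 201 and 329 in the standard-dose libraries and 133, 276, 172, 250.4 and 168 in the increased-dose libraries, highest in replicates 41 and 17. The groups overlapped, and the difference of −0.32 on the log2 scale (SE 0.29) did not pass (adjusted limma p 0.63, without replicate 9 −0.49 and without replicate 41 −0.17). ITGB1BP2, a muscle protein known as melusin, stood at 44.8 to 160.1 and 43.3 to 110.0, with its highest value in replicate 41, where all 7 tested skeletal muscle markers were highest too. Their part in that value was not tested. ITGBL1, a secreted protein with integrin-like repeats, had a mean of 10.1.

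**Figure D4:**
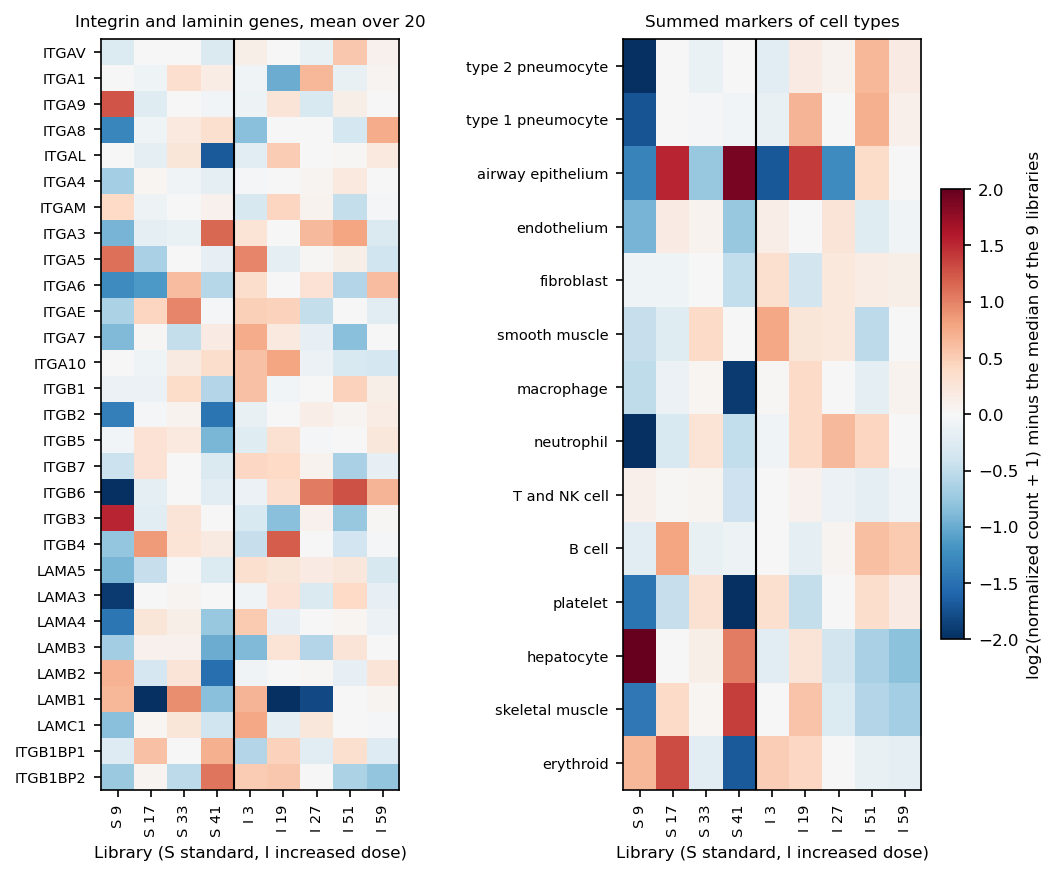
Departure of each library from the median of the 9 libraries in log2(normalized count + 1), for the 29 genes (left) and for the summed markers of 14 cell types (right), with colours clipped at −2 and 2; S and I mark the standard and increased dose. Replicate 9 is blue for LAMA3, LAMA4, ITGB2, ITGB6 and ITGA6 and for both pneumocyte lists, red for ITGA9, ITGA5 and ITGB3 and for the hepatocyte list, and replicate 41 is blue for ITGAL, ITGB2 and the macrophage list.

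Partners of the integrins and laminins were taken from 5 lists of adaptors, ligands, basement membrane components, other laminin receptors and tetraspanins, with 71 tested genes. Limma called 0 of them (0% of all genes), and DESeq2 called 2 (1.57% of all genes), the tetraspanin CD9 and the ligand VTN. At an unadjusted limma p under 0.05 stood 10 of the 71, 7 higher and 3 lower, beside 5.57% and 6.6% of all tested genes. These 10 are named for that p, after their values were seen. CD9, a tetraspanin that holds integrins such as those of ITGB1 in membrane clusters, had counts of 1149, 2415, 2969.9 and 1370.0 in the standard-dose libraries and 5975, 3616, 5963, 8685 and 6638 in the increased-dose libraries. All 5 increased-dose pigs lay above all 4 standard-dose pigs, and it was 1 of 2 tetraspanins with separate groups among the 7 tested (3.81% of all genes). The difference was 1.70 on the log2 scale (SE 0.33), with an adjusted p of 0.397 in limma and 0.00776 in DESeq2, and 1.47 without replicate 9. The other, TSPAN4, lay lower on the increased dose, at 109, 32.9, 40.0 and 31.3 in the standard-dose libraries and 22.6, 13.6, 28.7, 23.7 and 20.2 in the increased-dose libraries, a difference of −1.09 that did not pass (adjusted limma p 0.401, without replicate 9 −0.68). CD63 and CD81, the tetraspanins with the highest counts beside CD9, overlapped between the groups, at 4389 to 9693 and 7999 to 11671 for CD63 and 475 to 2611 and 1416 to 2427 for CD81.

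Adaptors, which link the beta tails to actin, had a median log2 fold change of 0.00200 over 23 tested genes (13 positive and 10 negative), which was 0.15 without replicate 9 and −0.01 without replicates 9 and 41. The 3 with the highest counts were the actin crosslinker FLNA, the kindlin FERMT2 and the talin TLN1, with mean counts of 1801, 1608 and 996 and overlapping groups. Groups that did not overlap were found for 1 of the 23 adaptors, near the share of 3.81% of all tested genes. It was ILK, the pseudokinase that joins beta tails to parvins. ILK stood at 70.1, 95.1, 100.0 and 68.3 in the standard-dose libraries and 163, 214, 129, 109 and 152 in the increased-dose libraries. Its difference was 0.86 on the log2 scale (SE 0.26, adjusted limma p 0.397) and 0.78 without replicate 9. PTK2B, a kinase related to the focal adhesion kinase, differed by 0.78 with overlapping groups, and by 0.43 without replicates 9 and 41.

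Ligands had 15 positive and 5 negative log2 fold changes of 20 tested genes, with a median of 0.34 that was 0.13 without replicate 9 and 0.16 without replicates 9 and 41. FN1, ICAM1 and CCN2 had the highest counts, and fibronectin (FN1) stood at 18408 in replicate 9 against 4910.0 to 7765 elsewhere. Thrombospondin (THBS1) differed by 1.08 on the log2 scale, tenascin (TNC) by 1.05 and TGFB1, whose latent form the integrin of ITGB6 binds, by 0.77. Without replicates 9 and 41 these differences were 0.61, 1.00 and 0.22, and that of TGFB1 was 0.51 without replicate 41 alone. TGFB1 had counts of 266, 505, 465 and 190.3 in the standard-dose libraries and 588, 737, 551, 537 and 443 in the increased-dose libraries, with replicates 9 and 41 lowest and the groups overlapping. Vitronectin (VTN), which the liver secretes, had counts of 8629, 899, 1032 and 1851 in the standard-dose libraries and 825, 1347, 772, 610.0 and 486 in the increased-dose libraries. Replicate 9 stood far above the rest, as it did for the hepatocyte markers, and the difference of −1.37 on the log2 scale was −0.65 without it and −0.34 without replicates 9 and 41. The part of the hepatocyte markers in this difference was not tested. The adjusted p of VTN was 0.401 in limma and 0.0394 in DESeq2.

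Basement membrane genes had 10 positive and 3 negative log2 fold changes of 13 tested genes, with a median of 0.40. Replicate 9 was the lowest library for 8 of the 13, and the median was 0.01 without it. COL4A1, SPARC and COL4A2 had the highest counts, and COL4A1, a chain of the main collagen of basement membranes, stood at 1389, 3331, 3762 and 3026.5 in the standard-dose libraries and 5061, 3166, 4657, 2939 and 2712 in the increased-dose libraries, so that replicate 9 was the lowest and the groups overlapped. COL4A6, a rarer chain of that collagen, differed by 1.27 on the log2 scale with overlapping groups (17.9 to 48.5 and 31.9 to 88.7), and by 0.72 without replicates 9 and 41. The list of laminin receptors other than integrins also holds the hemidesmosome linkers PLEC and DST. It had 2 positive and 6 negative log2 fold changes of 8 tested genes, with both linkers among the negative ones. Of the 3 with the highest counts, the ribosomal protein and laminin receptor RPSA overlapped between the groups, and the syndecans SDC2 and SDC1 were highest in replicate 9, at 1425 and 2719.7. DST, a linker of hemidesmosomes, differed by −0.85 and was −0.48 without replicate 9 and −0.23 without replicates 9 and 41.

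Because the reads come from the 3′ end of a transcript, the counts depend on where the annotated gene ends. The ends compared with RefSeq here are those of the deposited positions. Their Ensembl release is not stated and may differ from the release used for counting. All 38 genes matched 1 RefSeq gene on the same strand, and for 23 of them the 3′ ends of both annotations lay within 100 bases. RefSeq ended more than 100 bases further downstream for 6 genes, which were ITGA1 (by 5325 bases), ITGA2 (3208), ITGB8 (2036), LAMB1 (1032), LAMB4 (657) and ITGA8 (316). It ended more than 100 bases earlier for the remaining 9, among them ITGAM, ITGA4, ITGB2 and LAMA5. Reads beyond the counted end are not in the counts, and whether there were any was not tested, so the levels of these 6 genes are less certain beside those of other genes. The same gene models were counted in every library of both doses.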

How the data were processed

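The 9 lung libraries, 4 of the standard and 5 of the increased dose, were grouped by the treatment in the labels. RNA came from 10 animals, and the authors rejected 1 library. The title of standard-dose replicate 33 was followed, although its description and column carry the number 31.

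The authors trimmed the reads, aligned them to Sscrofa11.1 by TopHat, and obtained gene counts from HTSeq with Ensembl annotation. The deposited signal values are these gene counts divided by 1 DESeq2 size factor per library, with their mean beside them. The deposited fold changes and p-values are the authors' own comparison and were not used. A deposited sheet gave gene positions, and 223 names came from the Ensembl name table. In every library 100% of the values were whole multiples of 1 read (tolerance 0.01), so reads were recovered by division. They came to 4253502 to 5919294 per library, and precision from them covers counting error only. Reads are attributed by gene model, so related genes with similar 3′ ends are uncertain.

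Genes with a mean over 20 were tested with limma 3.58.1 (mean-variance trend) on log2(normalized count + 1), two-sided, with Benjamini-Hochberg adjustment over 12446 genes and a threshold of 0.05. Fold changes on this scale understate changes of low genes. Exact two-sided permutation tests used all 126 splits. As alternatives, the filter was dropped or set to 10 normalized counts in 4 or more libraries, the pseudocount was 0.5 or 5, scaling was by quantiles or TMM, variances were robust, libraries were weighted, and tests were done with edgeR 4.0.16 and DESeq2 1.42.0 on recovered reads. Each library was also left out, as were replicates 9 and 41 together. DESeq2 without each library was added after the results were seen. The members, partner lists and marker lists were chosen with earlier results of these data known, and 1 gene found by the naming rule and 1 platelet marker are not reported here. Full statistics are given for members with a mean over 100, for those with an unadjusted limma p under 0.05 and for ITGA6 and ITGB3, and the 3 partners with the highest mean in each list are named. The fits were tested on simulated counts with known changes, drawn with the same dispersion for every gene and without libraries that stand apart. That setting differs from these data, so it does not show how the fits behave with replicates 9 and 41. R 4.3.3, Python 3.11.15, numpy 2.4.6, pandas 2.3.3 and matplotlib 3.10.9 were used.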

Additional observations from a re-analysis of the deposited data

Results flagged for a closer look

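In 106 dose groups of single genes, the lowest or highest pig was compared with the gap and range of its group on the log2 scale, and 9 pigs stood apart, where chance gives about 1 in 20 groups. Of these, 5 were standard-dose replicate 9. It was low for ITGB6, at 13.4 against 58.2 to 67.9 in the other standard-dose pigs, and for LAMA3, at 145 against 549 to 573. It was high for ITGA9, at 919 against 324 to 385, and for the syndecans SDC2, at 1425 against 786 to 825, and SDC1, at 2719.7 against 573 to 684. In the increased-dose group, replicate 59 was low for LAMA5, at 439 against 617 to 685, and replicate 51 was low for the collagen chain COL4A6, at 31.9 against 78.7 to 88.7. Replicate 19 was high for ITGB4, at 74.2 against 22.6 to 31.3, and low for fibronectin (FN1), at 4910 against 6343 to 6866.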

How the results depend on the processing

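No integrin or laminin gene was called under any of the 21 alternatives or by DESeq2 without single libraries. The number of all genes called was 0 in limma, 195 with DESeq2 on recovered reads, 2 with array weights and 6 to 702 with DESeq2 when single libraries were left out (leaving out 9, 17, 33 or 41 of the standard dose gave 10, 540, 702 or 61, and leaving out 3, 19, 27, 51 or 59 of the increased dose gave 34, 198, 16, 6 or 6). For partner genes it was 0 in limma, 2 with DESeq2 and 1 to 4 with DESeq2 without single libraries, and for cell type markers 0, 5 and 0 to 16. Of the 21 members with full statistics, 14 kept the sign of the log2 fold change under every alternative and 17 did so under those that kept all libraries. Without replicates 9 and 41 the sign turned for ITGA9 (0.12), ITGB7 (−0.13), ITGA8 (−0.14), ITGB5 (−0.19) and LAMA4 (−0.12). With array weights it turned for ITGA9 (0.0563), ITGB7 (−0.17) and ITGB5 (−0.10), and on recovered reads for ITGA5 (−0.00440 with edgeR and −0.0237 with DESeq2). Leaving out single libraries gave −0.38 to 0.0285 for ITGA1, −0.20 to 0.38 for ITGA5, −0.23 to 0.32 for ITGA8, −0.40 to 0.10 for ITGA9 and −0.0872 to 0.31 for ITGB5. Of the 10 partner genes with an unadjusted p under 0.05, CD9 and VTN passed with DESeq2 only, and 0 changed sign. TMM factors and quantile normalization shifted the median of all genes to 0.06 and 0.05. The causes were not tested. No paired analysis was possible because the dose groups share no replicate numbers. With 4 and 5 animals and 2 standard-dose libraries that stand apart, differences of the size seen here for most members could not be separated from the spread between animals.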
